A study of Mus musculus with 2 samples.

Results

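The Ms4a genes of macrophages were examined in cultures of OC-induced bone marrow-derived monocytes (BMDMs) from a control and from a LysM-Cre;Arid1afl/fl mouse group, called the mutant from here on. The genes are Ms4a4a, Ms4a4c, Ms4a6b, Ms4a6c, Ms4a6d and Ms4a7. They were found by symbol and are 6 of the 21 Ms4a rows among the 32544 genes of the count tables. The members were chosen by their ratio of mutant over control in these libraries, which was known beforehand, so every level, ratio and order of it is a description without a test. Both cultures were started from bone marrow of mice 4 to 6 weeks old. Both received M-CSF at 50 ng/ml together with RANKL at 100 ng/ml, and cells were captured 24 h after induction with RANKL. LysM-Cre is driven by the Lyz2 promoter, which is active in monocytes, macrophages and neutrophils, and its target here is the floxed Arid1a gene, which encodes a DNA-binding BAF subunit. The alleles carried by the control are not given in the labels, nor is the number of animals behind each culture.

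Each genotype had 1 single-cell library of 3′ tags, so no difference has a replicate check, and the ranges in parentheses are at the 95% level and cover counting error only. Cells with at least 500 detected genes and at most 10% mitochondrial unique molecular identifiers (UMIs) were kept, which gave 6269 control cells with a median of 23978 UMIs and 5663 mutant cells with a median of 21734 UMIs. Arid1a was at 51.9 counts per 1e6 UMIs (CPM) in the control and 20.4 CPM in the mutant library, and a 3′ tag also counts transcripts of a recombined allele. The macrophage label was checked with 8 markers, all detected in both libraries. Csf1r, the M-CSF receptor, had a UMI in 95.7% of control and 94.1% of mutant cells, and Cd68 in 97.8% and 95.7%. Summed macrophage markers were at 11939 CPM in the control and 7476 CPM in the mutant library. Lyz2, the gene that carries the Cre, made up 10803 and 5432 CPM of these sums. Cd14 was also lower in the mutant, at 103 and 92.4 CPM. The other markers were higher in the mutant. Csf1r was at 256 and 402 CPM, Cd68 at 469 and 603 CPM, and Adgre1 at 147 and 534 CPM. Itgam was at 133 and 275 CPM, Fcgr1 at 26.8 and 135 CPM, and Mertk at 1.64 and 3.33 CPM. Summed neutrophil markers (6 of 6 detected) were at 275 CPM in the control and 2063 CPM in the mutant library, and summed class II markers (4 of 4 detected) at 28.7 and 116 CPM. The libraries shared 8 cell barcodes, and leaving those cells out, a choice made after the data were seen, changed no call or direction for these genes.

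MS4A proteins are small membrane proteins that cross the membrane several times and sit beside immune receptors, whose signalling or trafficking some of them alter. The best known are CD20, the product of Ms4a1 in B cells, and the beta chain of the high-affinity IgE receptor, the product of Ms4a2 in mast cells and basophils. Ms4a4a, Ms4a6 genes and Ms4a7 are characteristic of macrophages and monocytes, and Ms4a7 is widely used as a macrophage marker. The mouse Ms4a4 and Ms4a6 groups hold closely related copies, so reads of one copy can resemble those of the next.

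All 21 Ms4a genes lie together on mouse chromosome 19 (GRCm39), over 679 kb, and the 6 members lie within 284 kb of that stretch. From low to high coordinates they are Ms4a7 (chr19:11298403-11313510, minus strand), Ms4a4a (chr19:11352823-11370154, plus), Ms4a4c (chr19:11382131-11404610, plus), Ms4a6c (chr19:11446718-11462204, plus), Ms4a6b (chr19:11493876-11508620, plus) and Ms4a6d (chr19:11563968-11582213, minus). A lncRNA overlaps Ms4a6c on the opposite strand (BE692007, 59 control and 287 mutant UMIs). Another overlaps Ms4a6b (Gm19261, 0 UMIs in both). How strand was used in counting is not given in the sources used here, so the counts of such a pair are given as uncertain. Shared sequence was measured as the share of a gene's 50-base transcript words that also occur in another Ms4a gene. It was highest for Ms4a4c, of whose words 7.20% occur in Ms4a4b. For Ms4a6b 4.14% occur in Ms4a6c, for Ms4a6c 2.66% in Ms4a6b, and for Ms4a6d 2.69% in Ms4a6b, whereas Ms4a4a and Ms4a7 shared none. How reads of these stretches were divided was not tested.

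Start-site windows are shown because the members differed in how closely their levels followed interferon-stimulated transcripts, as given further on. Each runs from 250 bases before to 50 bases after a start annotated by RefSeq (table of build GRCm38.p6, 5 of the 6 members matched), written on the gene's own strand. All of the printed windows matched GRCm39 exactly and once, at the positions given. Capitals mark matches to GAAANNGAA, the core to which interferon regulatory factors bind, on either strand.
Ms4a4c (chr19:11384775-11385074): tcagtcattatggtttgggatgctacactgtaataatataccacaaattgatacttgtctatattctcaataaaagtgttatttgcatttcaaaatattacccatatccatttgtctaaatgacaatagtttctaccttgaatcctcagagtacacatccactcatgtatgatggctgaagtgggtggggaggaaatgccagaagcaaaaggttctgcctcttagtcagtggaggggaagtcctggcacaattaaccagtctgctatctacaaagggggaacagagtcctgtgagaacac
Ms4a6b (chr19:11495673-11495972): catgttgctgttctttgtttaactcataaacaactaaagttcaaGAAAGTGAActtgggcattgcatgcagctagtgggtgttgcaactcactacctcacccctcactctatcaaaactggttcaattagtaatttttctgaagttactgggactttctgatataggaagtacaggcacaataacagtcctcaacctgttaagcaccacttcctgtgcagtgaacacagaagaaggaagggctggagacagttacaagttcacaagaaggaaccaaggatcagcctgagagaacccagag
Ms4a6c (chr19:11446482-11446781): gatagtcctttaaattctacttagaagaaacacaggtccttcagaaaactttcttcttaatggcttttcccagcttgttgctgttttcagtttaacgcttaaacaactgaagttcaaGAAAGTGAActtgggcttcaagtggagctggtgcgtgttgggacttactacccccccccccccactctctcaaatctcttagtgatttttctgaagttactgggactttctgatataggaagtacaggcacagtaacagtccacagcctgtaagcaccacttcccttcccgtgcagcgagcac
Ms4a7, upstream start (chr19:11313461-11313760): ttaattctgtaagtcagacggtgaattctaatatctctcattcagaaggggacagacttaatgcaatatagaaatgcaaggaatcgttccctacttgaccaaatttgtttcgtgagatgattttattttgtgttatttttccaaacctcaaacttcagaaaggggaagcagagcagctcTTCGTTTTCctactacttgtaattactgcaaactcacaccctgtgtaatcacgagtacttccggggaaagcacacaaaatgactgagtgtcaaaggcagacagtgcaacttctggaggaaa
Ms4a7, downstream start (chr19:11312010-11312309): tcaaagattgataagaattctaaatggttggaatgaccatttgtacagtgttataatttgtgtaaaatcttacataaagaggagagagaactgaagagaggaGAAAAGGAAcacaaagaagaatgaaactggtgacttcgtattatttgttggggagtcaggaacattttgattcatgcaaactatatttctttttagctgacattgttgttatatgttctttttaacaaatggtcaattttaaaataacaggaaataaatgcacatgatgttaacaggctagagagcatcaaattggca

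Ms4a6b and Ms4a6c carried the same letters, GAAAGTGAA, with the first base 206 and 133 bases before the start. Each Ms4a7 window also held 1 match, and the downstream window held a match to the AP-1 letters TGANTCA. Ms4a4c had no match to the interferon regulatory factor letters, the STAT letters TTCNNNGAA, the PU.1 letters GAGGAAG or the AP-1 letters, and neither did Ms4a4a. Matches to these letters are common. Among 32851 promoter windows of the same length, 8.56% held GAAANNGAA, 8.30% TTCNNNGAA, 13.6% GAGGAAG and 7.81% TGANTCA. The annotation used for gene positions starts Ms4a4c and Ms4a6b upstream of these RefSeq windows, and those starts were not searched.

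Higher levels in the mutant library were counted for 5 of the 6 genes. Ms4a7 had the highest level in both, with 220 CPM in the control (218 to 223) and 714 CPM in the mutant (710 to 719), a log2 ratio of 1.70 (1.68 to 1.71). Ms4a6c stood at 94.5 and 453 CPM, or 2.26 on the log2 scale (2.24 to 2.29). Ms4a6d, which was slightly above Ms4a6c in the control, was below it in the mutant (102 and 315 CPM, log2 ratio 1.63). Ms4a6b went from 33.2 to 205 CPM (2.63, from 2.58 to 2.67).

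The largest ratio belonged to Ms4a4c, which was close to absent in the control with 872 UMIs (5.33 CPM) and reached 15494 UMIs (118 CPM) in the mutant, a log2 ratio of 4.47 (4.37 to 4.57). Ms4a4a was hardly detected, with 2 UMIs in the control and 7 in the mutant (log2 ratio 2.12, from -0.27 to 5.43), so no direction can be read for it at this depth. The 5 detected genes ranked 4 (Ms4a4c), 24 (Ms4a6b), 45 (Ms4a6c), 90 (Ms4a7) and 100 (Ms4a6d) by ratio among the 5219 genes whose mean over both libraries reached 20 CPM. All 5 were at least 2-fold higher, where 5.65% of those genes were (295 genes) and 1.13% were at least 2-fold lower, and this share is that of the contrast by which the genes were chosen. Ms4a4c passed the level filter only through the mutant library. The median log2 ratio was 2.26 over the 5 genes and 0.022 over all genes tested.

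Summed over the 6 genes, a control cell held 11.9 UMIs on average and a mutant cell 41.9. The make-up of the sum also differed between the libraries. Ms4a7 supplied 48.4% of it in the control and 39.6% in the mutant, and Ms4a6d 22.3% and 17.5%. Ms4a4c supplied 1.17% and 6.53%, Ms4a6b 7.30% and 11.4%, and Ms4a6c 20.8% and 25.1%. A 3′ tag count carries no transcript length, so levels of different genes are set side by side here as UMIs, and how well each transcript is captured was not tested.

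**Figure D1:**
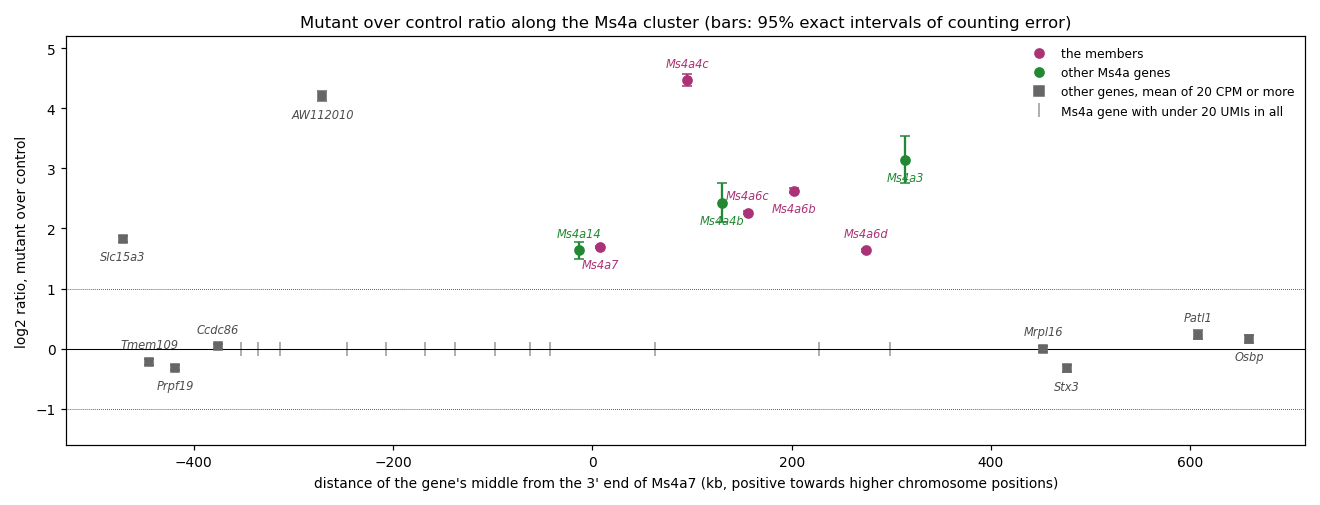
Log2 ratio of mutant over control (y axis) for Ms4a genes and for neighbours with a mean of 20 CPM or more, by the distance of each gene's middle from the 3′ end of Ms4a7 in kb (x axis). Bars are 95% intervals for counting error, dotted lines mark 2-fold, and ticks mark Ms4a genes with under 20 UMIs in all, Ms4a4a among them. The 5 detected members lie between 1.63 and 4.47, and 7 of the 9 neighbours lie near 0.

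The remaining Ms4a genes were low. Ms4a14, which lies next to Ms4a7, had 569 UMIs in the control and 1421 in the mutant (3.48 and 10.8 CPM), a log2 ratio of 1.64 close to that of its neighbour. Ms4a4b, best known from T cells and the gene with most shared words with Ms4a4c, had 103 and 445 UMIs (log2 ratio 2.43, from 2.12 to 2.75). Ms4a3, a marker of granulocyte and monocyte progenitors, had 64 UMIs in 16 control cells and 454 UMIs in 61 mutant cells, and summed neutrophil markers were higher in the mutant library too.

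Ms4a1 had 1 and 6 UMIs and Ms4a2 had 3 and 0, so the genes of B cells and mast cells were next to absent. Ms4a8a had 8 and 9 UMIs, Ms4a4d 2 and 4, Ms4a12 1 and 0 and Ms4a5 0 and 1. Ms4a10, Ms4a13, Ms4a15, Ms4a18, Ms4a19 and Ms4a20 had none in either library. Tmem176a and Tmem176b, relatives of the family on another chromosome, were at 9.25 and 15.1 CPM in the control and 17.5 and 19.6 CPM in the mutant, log2 ratios of 0.92 and 0.38.

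Most of the neighbours that reached a mean of 20 CPM did not share the difference. Of 33 other genes within 500 kb, 9 reached a mean of 20 CPM, 2 of these were at least 2-fold higher in the mutant and none was 2-fold lower, with a median log2 ratio of 0.036. Over all genes tested, 5.65% were at least 2-fold higher and 1.13% at least 2-fold lower. AW112010, a lncRNA locus that lies inside the cluster and responds to interferon and microbial stimuli, went from 7.45 to 137 CPM (4.20). It passed the level filter only through the mutant library. Slc15a3, a lysosomal peptide transporter at the flank of lower coordinates, went from 25.6 to 90.7 CPM (1.83). The other 7 (Tmem109, Prpf19, Ccdc86, Mrpl16, Stx3, Patl1 and Osbp) lay between -0.33 and 0.23, and all of them lie outside the cluster. Inside the cluster but below 20 CPM, BE692007 had a log2 ratio of 2.60 (2.19 to 3.03). Gm8369, also inside, had 58 control and 255 mutant UMIs (2.45, from 2.04 to 2.89).

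Whether a few cells or many carried the transcripts was asked at an equal depth, with each cell thinned to 5000 UMIs (6101 control and 5312 mutant cells were deep enough, 168 and 351 were not). Ms4a7 had a UMI in 46.3% of control and 78.7% of mutant cells, Ms4a6c in 32.4% and 80.6%, and Ms4a6d in 34.7% and 70.1%. Ms4a6b was seen in 13.4% and 53.6% of cells, and Ms4a4c in 2.03% and 31.2%. Without thinning these shares were 71.7% and 89.9% (Ms4a7), 65.9% and 93.3% (Ms4a6c), 68.7% and 90.1% (Ms4a6d), 38.3% and 81.6% (Ms4a6b), and 5.34% and 57.1% (Ms4a4c). Ms4a4a had a UMI in 0 of 6101 thinned control cells, which allows up to 0.0492% of cells with a UMI at this depth (3 cells), and in 0.0753% of mutant cells. Without thinning it had a UMI in 2 control and 7 mutant cells.

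At this depth 33.2% of control cells held no UMI of any of the 6 genes, against 3.56% of mutant cells. Cells with UMIs of 5 of them made up 0.590% of the control and 15.0% of the mutant library. Mutant cells of the neutrophil gate (at least 10 UMIs and 2% of UMIs over S100a8, S100a9, Camp, Ngp, Ltf and Lcn2), a type that should lack most of these transcripts, served as a background. Of 74 such cells, 8.11% had Ms4a4c, 16.2% Ms4a6b, 20.3% Ms4a6c, 12.2% Ms4a6d and 18.9% Ms4a7, at a median of 10816 UMIs before thinning. The shares over all mutant cells were above these. In the control the gate held 16 cells of this depth, with a median of 8070 UMIs, of which 1 had a Ms4a6b UMI and none had a UMI of the other members. A count of 0 in 16 cells allows shares of up to 18.8% (3 cells), and the interval for Ms4a6b reaches 30.2%, so the control shares of Ms4a4c and Ms4a6b cannot be told apart from background at this depth.

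UMIs were spread unevenly over cells. Ms4a7 had 0 UMIs in 53.7% of control cells, where a Poisson distribution with the same mean gives 33.3%, and in 21.3% of mutant cells, where it gives 3.04%. Its variance was 2.70 times the mean in the control and 3.71 times in the mutant library. For Ms4a4c the variance was 2.82 and 3.81 times the mean, and the 10% of mutant cells richest in it held 62.3% of its UMIs. The other 3 detected members lay between 1.36 and 2.12. The highest count in a single thinned cell was 13 in the control and 29 in the mutant for Ms4a7, and 14 and 20 for Ms4a4c. Cells with 5 or more Ms4a7 UMIs made up 5.13% of control and 30.1% of mutant cells.

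**Figure D2:**
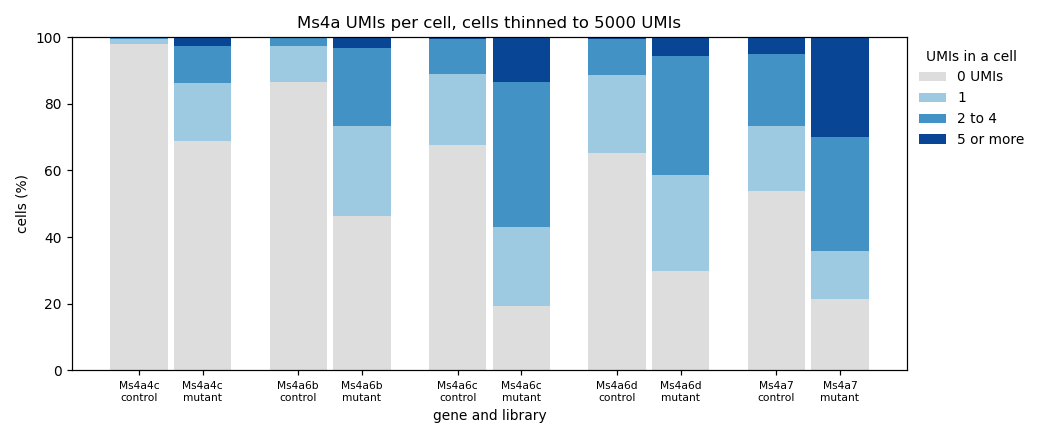
Share of cells (percent, y axis) by the number of UMIs of each detected member in a cell thinned to 5000 UMIs, for the control and the mutant library. Cells without a Ms4a7 UMI made up 53.7% of the control and 21.3% of the mutant library, and 5 or more Ms4a7 UMIs were found in 5.13% of control and 30.1% of mutant cells.

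Members occurred in the same cells more often than the product of their single shares in both libraries. In the control, Ms4a4c and Ms4a6b were found together in 1.02% of cells, 3.74 times the product, and the other pairs of detected members lay between 1.39 and 2.22 times. In the mutant, where most cells held several members, the factor lay between 1.04 and 1.31. Of the 124 control cells with Ms4a4c, 50.0% (40.9 to 59.1%) also had Ms4a6b, against 12.6% of control cells without Ms4a4c.

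Levels were then followed over states of the culture. The OC gate took cells in which Ctsk (cathepsin K), Mmp9 (a gelatinase), Acp5 (the tartrate-resistant acid phosphatase) and Dcstamp (needed for cell fusion) together had 3 or more of the 5000 UMIs. The cycling gate did the same for the proliferation genes Mki67, Top2a, Cdk1 and Aurka. In the control 3339 cells were in neither gate, 2158 were cycling alone, 359 were in the OC gate alone and 245 in both. In the mutant the numbers were 3425, 1704, 134 and 49. Levels within a state use all UMIs of its cells.

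In the control library the members were lower in cells of the OC gate than in cells of neither gate. Ms4a7 was at 266 CPM in cells of neither gate, 207 CPM in cycling cells, 79.5 CPM in the OC gate alone and 48.9 CPM in both gates. Ms4a6c followed the same order at 115, 88.7, 28.9 and 21.6 CPM, and so did Ms4a6d at 122, 95.4, 38.6 and 30.2 CPM. Every step of these 3 orders exceeded the counting intervals. Ms4a6b was at 40.7, 31.0, 9.64 and 6.22 CPM, and Ms4a4c at 7.36, 3.87, 1.04 and 1.71 CPM, with overlapping intervals for the OC gate alone and both gates in each.

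Between the OC gate alone and neither gate, the control log2 ratios were -2.82 for Ms4a4c (-3.83 to -1.98, 11 UMIs in the gate), -2.08 for Ms4a6b, -1.99 for Ms4a6c, -1.66 for Ms4a6d and -1.74 for Ms4a7. Of the 4 members with a mean of 20 CPM, which leaves out Ms4a4c, all 4 were at least 2-fold lower, where 4.16% of 4947 genes were and 1.48% were at least 2-fold higher. Ms4a6b passed this level filter only through cells of neither gate. Their median was -1.86, and that of all genes 0.091. Summed macrophage markers, of which Lyz2 supplies most UMIs, were at 13848 CPM in control cells of neither gate and 4308 CPM in the OC gate alone. Summed neutrophil markers were at 199 and 7.18 CPM, and whether either has a part in the members' difference was not tested.

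In the mutant library the differences between the OC gate alone and neither gate were smaller, with 3 members lower beyond their counting intervals, 1 higher, and Ms4a7 not distinguishable. Ms4a7 was at 775 CPM in neither gate, 612 CPM in cycling cells, 772 CPM in the OC gate alone and 448 CPM in both gates, and its ratio for the OC gate alone was -0.0063 (-0.064 to 0.051). Ms4a4c was at 122, 109, 145 and 69.3 CPM, which made the OC gate alone its highest state, by a log2 ratio of 0.25 (0.11 to 0.38) over neither gate. The share of cells with a Ms4a4c UMI went the other way. It was 47.8% in the OC gate alone and 59.2% in neither gate without thinning, and 28.4% and 32.2% at 5000 UMIs. Ms4a6b stood at 210, 200, 182 and 119 CPM (-0.21 for the OC gate alone, from -0.33 to -0.092), Ms4a6c at 467, 443, 340 and 243 CPM (-0.46, from -0.55 to -0.37), and Ms4a6d at 329, 298, 303 and 196 CPM (-0.12, from -0.21 to -0.026). None of the 5 was 2-fold lower or higher in the OC gate alone, where 0.386% of 5175 genes were lower and 0.734% higher, and the medians were -0.12 over the 5 members and 0.021 over all genes. Cells in both gates were lower than cells in neither for every detected member, with log2 ratios between -0.94 and -0.75, although this rests on 49 cells.

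That contrast in the mutant depended on what the gate held. Acp5 alone brought 69 of the 134 mutant cells into the OC gate (51.5%, 42.7 to 60.2%), against 32 of 359 control cells (8.91%). In the mutant gate Ctsk was at 209 CPM, Mmp9 at 66.6 and Dcstamp at 24.5, lower than the 401, 378 and 71.8 CPM of the control gate, whereas Acp5 was at 642 and 732 CPM. The median member ratio of the mutant gate was -0.75 when Acp5 was left out of the gate (29 cells), -1.05 with at least 5 UMIs required (59 cells) and -1.09 with gates set at 2000 UMIs per cell (50 cells). In the control, gates set at 10000 UMIs gave -1.12 and gates without thinning -0.70, in place of -1.99 for all 5 members. Ms4a4c turned in direction under these gates in the control, to 0.15 and 0.38, and in the mutant it turned to -1.47 with gates set at 2000 UMIs, -1.54 with at least 5 UMIs and -0.26 without Acp5.

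Single gate genes differed among themselves in the mutant. Mutant cells with a Dcstamp UMI (48 cells) had 271 CPM of Ms4a7, against 703 CPM in cells without (log2 ratio -1.38, from -1.75 to -1.03), and Ms4a6d was 1.23 lower on the log2 scale. In those cells Ms4a6b (-0.74) and Ms4a6c (-0.72) were lower as well, and the interval of Ms4a4c included 0 (-0.34, from -0.97 to 0.22). Mutant cells with an Acp5 UMI (1157 cells) differed from those without by 0.20 for Ms4a7 and 0.13 for Ms4a6d, and the others lay between -0.053 and 0.060. Mutant cells with a Ctsk UMI (287 cells) had more Ms4a4c (0.67, from 0.49 to 0.84), Ms4a6d (0.16) and Ms4a7 (0.14) and less Ms4a6c (-0.27), and the interval of Ms4a6b included 0. In mutant cells with an Mmp9 UMI (63 cells) all 5 were lower, from -1.48 for Ms4a4c to -0.48 for Ms4a7. In the control, cells with Acp5 (964 cells) were lower for the same genes, at -0.85 for Ms4a7, -0.78 for Ms4a6d, -1.01 for Ms4a6c and -0.83 for Ms4a6b. The interval of Ms4a4c with Acp5 included 0 (-0.65, from -1.40 to 0.025). Control cells with Dcstamp (274 cells) had Ms4a7 at 59.9 CPM against 227 CPM without (-1.93), and no Ms4a4c UMI. With Ctsk (620 control cells) Ms4a6b, Ms4a6c, Ms4a6d and Ms4a7 lay between -0.92 and -0.76. The interval of Ms4a4c included 0 there (0.38, from -0.30 to 1.00). With Mmp9 (791 control cells) all 5 were lower, from -1.32 for Ms4a7 to -0.74 for Ms4a6b.

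**Figure D3:**
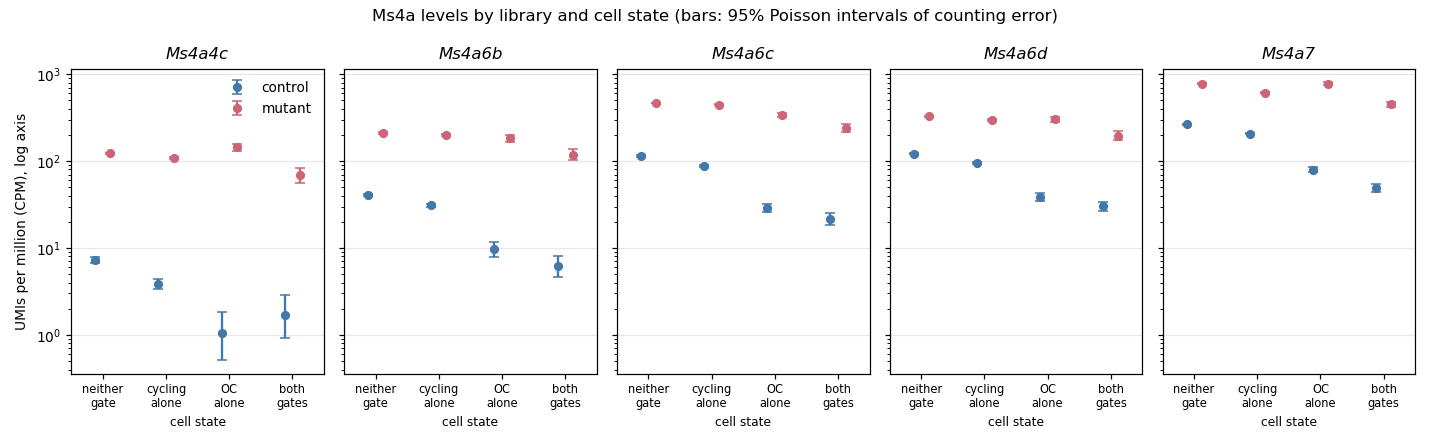
Level of each detected member (CPM, log axis) in the 4 states of each library, with 95% Poisson intervals for counting error. For each gene all 4 mutant levels lie above all 4 control levels, and in the control the states with OC transcripts lie lowest.

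Mutant levels were the higher ones in every state. For each of the 5 detected members, the lowest of the 4 mutant levels was above the highest of the 4 control levels. The log2 ratio of mutant over control in the OC gate alone was 7.13 for Ms4a4c, 4.24 for Ms4a6b, 3.56 for Ms4a6c, 2.97 for Ms4a6d and 3.28 for Ms4a7. In neither gate it was 4.05, 2.37, 2.02, 1.43 and 1.55 in the same order. As described above, the OC gates of the libraries differ in make-up, and the number of replicates gives no test of this difference.

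Grading cells by their OC UMIs gave a finer view. In the control, Ms4a7 was at 250 CPM in 4340 cells with 0 OC UMIs, 188 CPM in 1157 cells with 1 or 2, 91.5 CPM in 317 cells with 3 to 5 and 38.3 CPM in 287 cells with 6 or more. In the mutant the levels were 676, 775, 793 and 383 CPM in 3921, 1208, 135 and 48 cells. In the mutant the level of Ms4a7 was thus lower than in cells without OC UMIs only in the bin of 6 or more. Ms4a6c was lower in each successive bin of both libraries, with 111, 92.8 and 29.0 CPM in the 3 lower bins of the control. Its mutant levels were 470, 462, 428 and 175 CPM. In the mutant the counting intervals of the 3 lower bins overlapped, so only the bin of 6 or more was lower beyond them, as for Ms4a7. In the control the Ms4a6c intervals of the bins of 3 to 5 and of 6 or more overlapped. Between the bins at the ends, the control ratios were -3.18 for Ms4a4c (1 UMI in the top bin), -2.93 for Ms4a6b, -2.79 for Ms4a6c, -2.23 for Ms4a6d and -2.70 for Ms4a7. The mutant ratios were -1.34, -1.69, -1.43, -0.54 and -0.82.

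**Figure D4:**
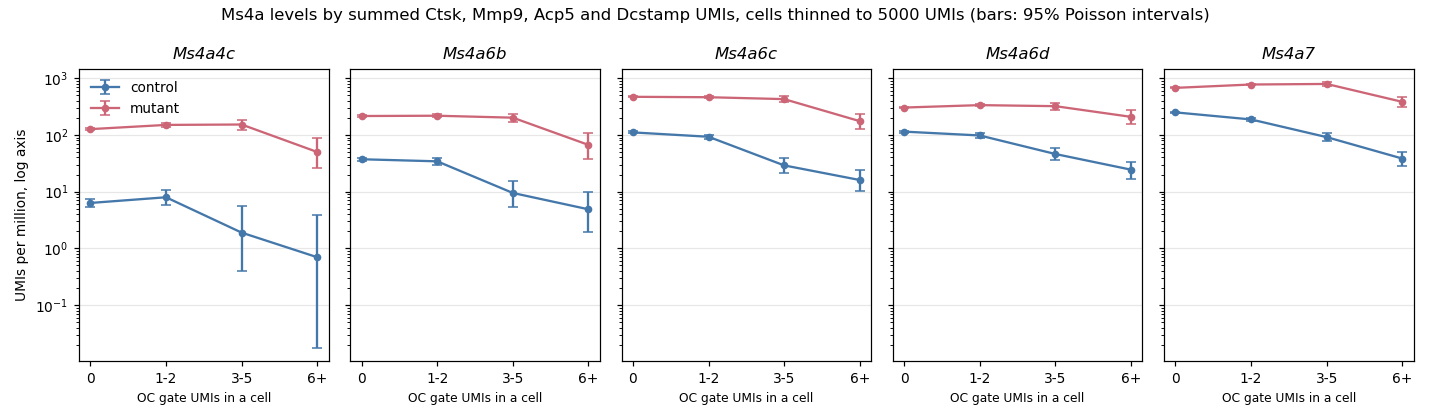
Level of each detected member (CPM, log axis) by the number of OC UMIs in a cell thinned to 5000 UMIs (0, 1 to 2, 3 to 5, 6 or more), with 95% Poisson intervals for counting error. Control levels are lower from 3 OC UMIs on for each member. They are lower beyond the intervals already at 1 to 2 for Ms4a6c, Ms4a6d and Ms4a7. Control Ms4a7 runs from 250 over 188 to 38.3 CPM. Mutant levels are lowest in the bin of 6 or more, as for Ms4a7 at 383 CPM.

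Cycling cells differed less. In the control, cycling cells outside the OC gate had log2 ratios over neither gate of -0.93 for Ms4a4c, -0.40 for Ms4a6b, -0.37 for Ms4a6c, -0.35 for Ms4a6d and -0.36 for Ms4a7. In the mutant these were -0.17, -0.076, -0.076, -0.14 and -0.34, so Ms4a7 was the member whose mutant value lay nearest the control one. Of the 4 control and 5 mutant members with a mean of 20 CPM, none reached 2-fold. In the control 1.96% of 5054 genes were 2-fold higher in cycling cells and 0.0198% lower. In the mutant 2.94% of 5347 genes were higher and 0.0935% lower. Summed neutrophil markers were at 394 CPM in control and 3711 CPM in mutant cycling cells, against 199 and 994 CPM in neither gate.

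The members sorted in the same order along interferon-stimulated transcripts in both libraries. In the control the order of Ms4a6d and Ms4a7 was not fixed, as given below. The list held 20 such genes, all at least 2-fold higher in the mutant library, where 5.65% of all genes tested were. The median log2 ratio of the list was 2.04, and the ratios ran from 1.22 for Rtp4 to 4.13 for Ifi44. Of the listed genes, Ifi44, Ifit2, Stat2 and Ifih1 were below 20 CPM in the control and passed the level filter only through the mutant library. Bst2, which tethers enveloped viruses to the cell surface, had the highest level (553 and 1851 CPM). Cells of each library were ranked by summed UMIs of the list and divided into 3 bins of equal size. The bins cover unlike ranges, so ratios of the libraries are not on a common scale. The lowest held 0 to 4 such UMIs in the control and 0 to 22 in the mutant, and the highest 8 to 195 and 30 to 410. Between the highest and the lowest bin, the control log2 ratio was 5.08 for Ms4a4c (0.492 to 16.6 CPM), 1.86 for Ms4a6b, 1.49 for Ms4a6c, 1.23 for Ms4a6d and 1.05 for Ms4a7 (143 to 296 CPM). The ratio of Ms4a4c has an interval of 3.83 to 6.72 and rests on 5 UMIs in the lowest bin. The mutant ratios fell in the same order, at 2.28 for Ms4a4c (51.6 to 250 CPM), 1.24, 0.87, 0.64 and 0.45 for Ms4a7 (588 to 804 CPM). The control intervals of Ms4a6d (1.09 to 1.36) and Ms4a7 (0.96 to 1.15) overlapped. With cells thinned to 2000 UMIs, the control ratios were 0.91 for Ms4a6d and 1.05 for Ms4a7, so their order turned round. The mutant order stayed the same at 2000 UMIs. Within each library the bins are cells of 1 sample, and the list was chosen with its difference between libraries known.

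To set cells of like interferon transcript content side by side, cells were also matched on the summed UMIs of the list, a comparison chosen after the data were seen. With 20 to 39 such UMIs, 205 control and 3284 mutant cells could be compared. Ms4a7 was at 303 CPM in the control and 712 CPM in the mutant cells, a log2 ratio of 1.23 (1.07 to 1.40). Ms4a6c had 1.15, Ms4a6b 1.13, Ms4a4c 0.89 (0.53 to 1.29) and Ms4a6d 0.63. In this bin the ratio of Ms4a4c was 0.89, beside 4.47 over all cells, and that of Ms4a7 1.23, beside 1.70. Other bins gave other ratios, as listed next, and the cause of these differences was not tested.

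With 10 to 19 UMIs (1049 and 1204 cells) the log2 ratios were 2.57 for Ms4a4c, 1.29 for Ms4a6b, 1.14 for Ms4a6c, 0.66 for Ms4a6d and 0.98 for Ms4a7. In this bin mutant cells held more of the list's UMIs, 15.8 on average against 12.7. In the bin of 40 to 79 (58 and 627 cells) the 5 ratios lay between 0.66 and 1.21, and with 80 or more (23 and 92 cells) between 1.47 and 2.69. The mutant library had 36 cells with fewer than 5 such UMIs, of which 32 were in the neutrophil gate, and 69 cells with 5 to 9, of which 21 were, so these bins are not compared.

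**Figure D5:**
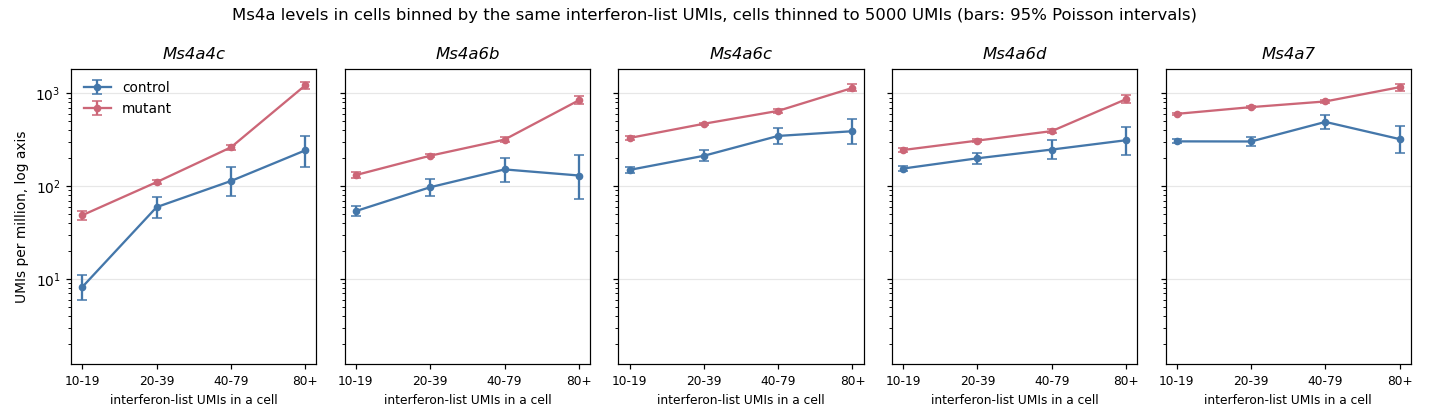
Level of each detected member (CPM, log axis) in control and mutant cells binned by summed UMIs of 20 interferon-stimulated genes in a cell thinned to 5000 UMIs (10 to 19, 20 to 39, 40 to 79, 80 or more), with 95% Poisson intervals for counting error. The mutant level lies above the control level in each bin shown, as for Ms4a7 with 303 and 712 CPM at 20 to 39 UMIs.

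Ly6a, a surface protein induced by interferon, gave another division of the cells. In the control, cells with a Ly6a UMI (913) had 23.4 CPM of Ms4a4c and cells without (5188) 3.08 CPM, a log2 ratio of 2.93. In the mutant (3828 and 1484 cells) that ratio was 0.92. For Ms4a7 the direction differed, from 216 CPM without to 242 CPM with Ly6a in the control (0.16, from 0.070 to 0.26) and from 803 CPM without to 659 CPM with Ly6a in the mutant (-0.29, from -0.33 to -0.24). The difference between the libraries was not tested. Ms4a6b and Ms4a6c were higher with Ly6a in both, by 0.47 and 0.45 in the control and 0.31 and 0.15 in the mutant, and Ms4a6d was higher in the control alone (0.33, against -0.03 from -0.10 to 0.04 in the mutant).

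Complement C1q genes, which mark resident-type macrophages, were followed in the same way. In the control, the bin highest in summed C1qa, C1qb and C1qc UMIs had 410 CPM of Ms4a7 and the lowest 68.0 CPM, a log2 ratio of 2.59. The other members lay between 1.84 and 2.74. Of these, Ms4a4c had 2.74 (2.02 to 3.54), with 18 UMIs in the lowest bin. With cells thinned to 2000 UMIs it had 0.92 (0.083 to 1.81), and the other detected members lay between 1.37 and 1.99. In the mutant the ratio of Ms4a7 was 0.72 (561 to 926 CPM), and the others lay between 0.15 and 0.50. These bins too cover unlike ranges, so ratios of the libraries are not on a common scale. The lowest held 0 to 1 C1q UMIs in the control and 0 in the mutant, and the highest 5 to 83 and 2 to 61. The C1q genes themselves were lower in the mutant library, with log2 ratios of -0.82 (C1qa), -0.88 (C1qb) and -0.63 (C1qc). In cells without a C1q UMI (1877 control and 2646 mutant) the ratio of mutant over control was 3.12 for Ms4a7, 3.28 for Ms4a6c and 6.09 for Ms4a4c. With 16 or more C1q UMIs it was 1.22, 1.85 and 3.35.

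Genes listed as characteristic of resident macrophages did not share a direction. Of 17 genes, 12 reached a mean of 20 CPM, of which 3 were at least 2-fold higher (Apoe 3.25, Adgre1 1.86 and Maf 1.60), none was 2-fold lower, and the median log2 ratio was 0.070. Pf4 had the highest level (655 and 795 CPM), and the folate receptor gene Folr2 the lowest ratio (-0.99). Of 9 monocyte genes 4 reached 20 CPM, of which 3 were 2-fold higher, with a median of 2.94. Plac8 (1.73 CPM in the control) and Chil3 (8.25 CPM) passed the level filter only through the mutant library. Plac8 had 4.58, Vcan -0.65, and Cx3cr1, the fractalkine receptor, the highest level (25.5 and 201 CPM). Of 10 genes of ITAM-coupled receptors and their adaptors, 7 reached 20 CPM and 3 were 2-fold higher, with a median of 0.83. Among the 3, Fcgr4 (18.5 CPM in the control and 45.0 CPM in the mutant) passed the filter only through the mutant library. Fcer1g, the common gamma chain, had the highest level (1807 and 3182 CPM), Fcgr1 the highest ratio (2.33) and Trem2 the lowest (0.54). The background for these counts is the 5.65% and 1.13% given above.

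Other cell types were examined for the same transcripts. In the mutant library, 94 cells of the class II gate (at least 5 UMIs and 0.1% of UMIs over Cd74, H2-Eb1, H2-Ab1 and H2-Aa) were deep enough for thinning, and 84.0% of them had Ms4a4c. Over all UMIs the gate stood at 496 CPM for Ms4a4c, 425 for Ms4a6b and 794 for Ms4a6c, above the 114, 204 and 451 CPM of cells outside the neutrophil, stromal and class II gates. Ms4a7 was lower in it, at 431 CPM (400 to 464) against 723 CPM. Ms4a6d was at 298 CPM (272 to 325) against 318 CPM, a difference within the counting interval. With all 3 gates removed, the share of mutant cells with at least 1 member was 97.3% in place of 96.4%. Mutant cells were also split by an Arid1a UMI. Cells with a UMI of it (499) had 634 CPM of Ms4a7 and cells without (4813) 706 CPM (-0.15), and the other detected members lay between -0.25 and -0.05. In the control, 1328 cells had an Arid1a UMI and 4773 had none, and the detected members lay between -0.17 and 0.15. A cell without a UMI at this depth can still carry the transcript. The split therefore cannot tell cells that kept Arid1a from cells that lost it.

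Over the 8 groups of library and state, the genes with the most similar levels were found for each member by Pearson correlation of log2(CPM + 1), as a description of 8 points that share 2 libraries. Ms4a4c was followed by Ifi47, Gm20559 and Ly6a (each 0.997), Ms4a6b by Srgn, Ms4a6c and Fndc3a, and Ms4a6c by Fcgr1, Ptk2b and Adgre1. Ms4a6d was followed by Sp110, Ms4a6c and Ms4a7, and Ms4a7 by Nupr1, Ms4a6d and Sat1. Among the 5 detected members the correlations lay between 0.940 and 0.998. For Ms4a4a, with 9 UMIs in all, the first gene was Golga3 at 0.819, followed by Dlgap4 and Cln8.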

How the data were processed

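The authors deposited a matrix of unnormalised UMI counts for each library. The file headers name Cell Ranger 6.1.0, and the study's methods a 10x Genomics 3′ v3.1 kit and the genome GRCm39. Counts of PCR copies are collapsed, and read depth limits what 0 UMIs can show. Groups came from the genotype labels. Of 12320 barcodes, 11932 passed the filter on genes and mitochondrial UMIs. Doublets were kept, and removing the 333 control and 275 mutant barcodes with the highest simulated-doublet scores was an alternative.

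Counts were summed over cells and scaled to CPM (163618835 control and 131469887 mutant UMIs) with exact Poisson intervals, log2 ratios with the exact conditional interval of 2 Poisson counts, and shares with Clopper-Pearson intervals, in Python 3.11.15, NumPy 2.4.6, SciPy 1.17.1, pandas 2.3.3 and scikit-learn 1.9.0. Figures used Matplotlib 3.10.9. The ratio code was tested on simulated data. States and shares used counts thinned without replacement to 5000 UMIs per cell. With 1 library per group there was no test, and a gene was called at 2-fold or more with a mean of at least 20 CPM. Gene coordinates came from GENCODE M39 (31977 of 32544 identifiers matched). The members and gene lists were chosen with earlier results of these data known.

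Named genes were the 6 members, every other Ms4a row, the 3 genes most like each member, for each list the highest level and the highest and lowest ratio, and neighbours within 500 kb at 20 CPM. Other list genes were named after their values were seen. Protein identity between the members and a gene of the ITAM list were not analysed here.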

Additional observations from a re-analysis of the deposited data

Results flagged for a closer look

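Each pattern below was picked out because a member moved one way in the control library and the other way in the mutant library. Neither difference between libraries was tested, since each genotype had 1 library.

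Ms4a4c was lower in control cells of the OC gate alone than in cells of neither gate, with a log2 ratio of -2.82 that rests on 11 UMIs in the gate, and higher in the corresponding mutant cells, with a log2 ratio of 0.25. In the mutant a smaller share of cells held a Ms4a4c UMI in the OC gate alone (47.8%) than in neither gate (59.2%), without thinning. In the mutant gate 51.5% of cells had Acp5 as their sole gate gene, against 8.91% in the control, and without Acp5 in the gate the mutant ratio was -0.26. The direction in neither library held under every gate: in the control it was 0.15 with gates set at 10000 UMIs and 0.38 without thinning, and in the mutant -1.47 with gates set at 2000 UMIs and -1.54 with at least 5 UMIs.

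Ms4a7 was higher with than without Ly6a in control cells, with a log2 ratio of 0.16, and lower in mutant cells, with a log2 ratio of -0.29. Of the other detected members only Ms4a6d was below 0 in the mutant, at -0.03 with an interval that includes 0.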

How the results depend on the processing

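No paired analysis was possible because each genotype had 1 library, and no library could be left out. Of 110 alternatives to the summary values, 69 stayed within the counting spread and 41 moved. Among the values of 2-fold or more none of the summary values changed sign, and among the smaller ones the mutant OC gate median did, without thinning. Of 501 alternatives to single-gene values, 325 stayed, 174 moved and 2 turned from a value of 2-fold or more to the other sign: Ms4a4c in the control OC gate alone was 0.15 with gates set at 10000 UMIs and 0.38 without thinning. The cause of the moves was not tested.

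The library median (2.26) was 2.15 without mitochondrial and ribosomal protein genes, 2.22 with equal weight per cell, 2.23 on thinned counts and 1.13 in cells with 20 to 39 interferon UMIs, a comparison added after the data were seen. In the control OC gate alone the median (-1.99) was -2.17 without doublets, -2.27 on thinned counts, -2.17, -1.12 and -0.70 with gates set at 2000 UMIs, at 10000 UMIs and without thinning, and -2.40 with 5 gate UMIs. In the mutant (-0.12) it was -1.09 with gates set at 2000 UMIs, 0.11 without thinning, -1.05 with 5 gate UMIs and -0.75 without Acp5. Mutant over control in this gate (3.56) was 4.09 on thinned counts, 3.28, 3.09 and 2.68 with gates set at 2000 UMIs, at 10000 UMIs and without thinning, and 3.15 without Acp5.

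For cycling cells the control median (-0.37) was -0.43 with median-of-ratios scaling, -0.32 with equal weight, -0.26 on thinned counts, and -0.28 and -0.42 with gates set at 2000 UMIs and without thinning. The mutant median (-0.14) was -0.18 with median-of-ratios scaling, -0.20 and -0.29 with gates set at 10000 UMIs and without thinning, and -0.10 with 5 gate UMIs. The share of cells with at least 1 member was 47.1% and 77.6% in the control and 87.9% and 98.7% in the mutant at 2000 and 10000 UMIs, and 97.3% in the mutant without the gates of other cell types. At 2000 UMIs the median ratio along interferon UMIs was 1.11 in the control and 0.74 in the mutant, and along C1q UMIs 1.47 and 0.31. Genes 2-fold higher numbered 295 at 20 CPM, 510 at 5 CPM and 2080 with 1 UMI in each library, and genes 2-fold lower 59, 140 and 1187.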
